A study of Mus musculus with 4 samples.

Results

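The 10 genes described here belong to regulatory T cells and type 2 immunity, and they were followed in gonadal white adipose tissue (gWAT) of mice on a high-fat diet with and without *Dnmt1* deletion in adipocytes. They were taken by symbol from the deposited expression table, namely *Foxp3*, *Ikzf2*, *Gata3*, *Areg*, *Klrg1*, *Il33*, *Il5*, *Il13*, *Il10* and *Arg1*, and all 10 had a row among its 17335 genes. The control group (fl/fl) was female mice with floxed *Dnmt1* alleles, and the AD1KO group was female littermates that carried the same floxed alleles together with Cre under the adiponectin promoter, which is active in adipocytes and not in the leukocytes that express most of these genes. Both groups were on the high-fat diet for 18 weeks, and their age is not given in the sources used here. RNA of 4 mice was pooled in each group, giving 1 RNA-seq library per group, so nothing below carries a measure of the spread between mice, and each difference is one between 2 libraries with no replicate check.

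Regulatory T (Treg) cells are CD4+ T cells that restrain immune responses. Their identity rests on the transcription factor FOXP3, and in lean visceral fat they form a large resident population that responds to the alarmin IL-33 and secretes IL-10 and amphiregulin. IL-33, released by stromal and mesothelial cells, also activates group 2 innate lymphoid cells (ILC2s), which depend on GATA3 and secrete IL-5 and IL-13. These cytokines sustain eosinophils and drive macrophages toward an alternatively activated state, of which arginase 1 is a marker. Both arms are known to wane in obese visceral fat.

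The Treg genes *Foxp3* and *Ikzf2* and the regulatory cytokine *Il10* were lower in AD1KO, at 1.25, 0.77 and 2.14 FPKM in fl/fl and 0.30, 0.34 and 0.62 FPKM in AD1KO. *Il33* and *Arg1*, the most abundant of the 10 in both libraries, were at nearly the same level in both, 5.74 and 5.80 FPKM for *Il33* and 4.11 and 3.70 FPKM for *Arg1*. The type 2 cytokines *Il5* and *Il13* were seen in AD1KO and not in fl/fl, from 3 and 7 reads. *Gata3* and *Klrg1*, which Treg cells share with ILC2s, were lower, at 0.82 and 1.26 FPKM in fl/fl and 0.49 and 0.59 FPKM in AD1KO, and *Areg* had 3 reads in fl/fl and was listed at 0 in AD1KO. FPKM scales fragments by transcript length and library size, so levels can be compared between genes. Each log2 ratio divides the AD1KO level by the fl/fl level after adding 0.01 FPKM to both, and a ratio at or past 0.5 in either direction, the cutoff of the study's methods, counts as lower or higher. Reads were computed from FPKM and transcript length, and 95% counting intervals from those reads cover counting error only, as reads without molecular identifiers are not independent molecules.

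Of the 10 genes, 6 were lower (*Foxp3*, *Ikzf2*, *Gata3*, *Areg*, *Klrg1* and *Il10*), 2 were higher (*Il5* and *Il13*) and 2 lay between (*Il33* and *Arg1*). Among all 15839 genes at 0.1 FPKM or more in 1 library, 19.1% were lower and 14.3% were higher. The whole counting interval lay at or below -0.5 for 3 of the 10 genes (*Foxp3*, *Ikzf2* and *Il10*), against 8.35% of all tested genes, and at or above 0.5 for 1 (*Il13*), against 4.18%. *Areg*, *Il5* and *Il13* had under 10 reads over both libraries and passed the 0.1 FPKM minimum only through the library where they were seen, so they had to differ. Without these 3 genes, 5 of the other 7 were lower and 0 were higher.

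**Figure D1:**
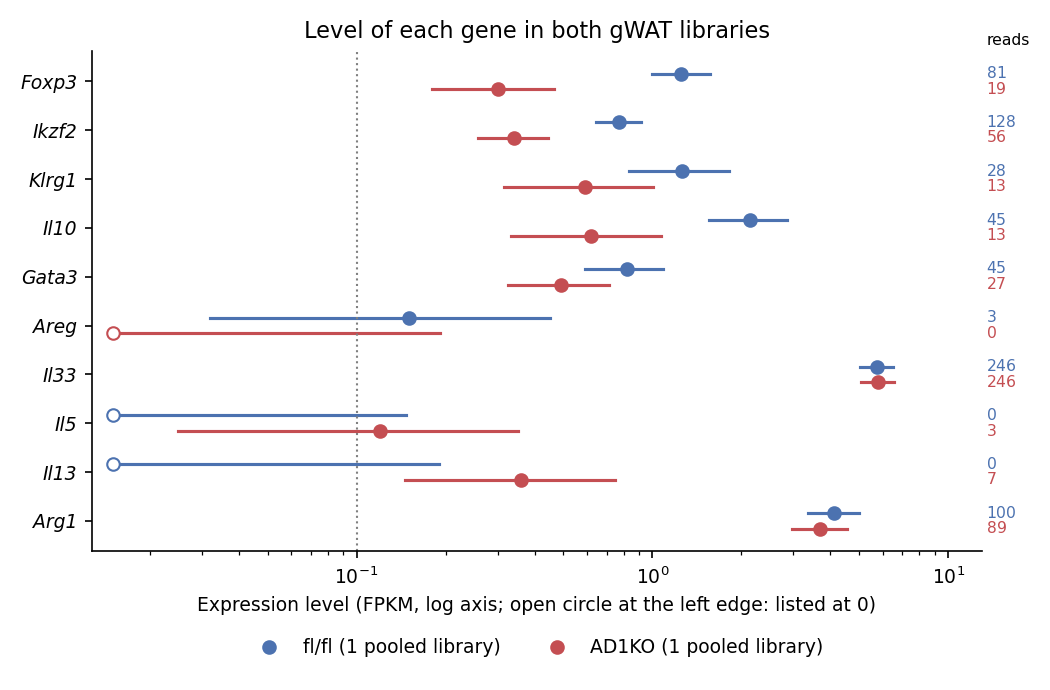
Level of each of the 10 genes (FPKM, log axis) in the fl/fl library (blue) and the AD1KO library (red), with lines for 95% Poisson counting intervals, open circles for a listing of 0, the dotted line at the 0.1 FPKM minimum, and reads per library at the right. The intervals are apart for *Foxp3* (81 and 19 reads), *Ikzf2* (128 and 56) and *Il10* (45 and 13) and lie on each other for *Il33* (246 and 246).

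Facts of the whole libraries bear on these values. The fitted depth was 17746000 reads in fl/fl and 17585000 in AD1KO. *Dnmt1* was at 6.99 FPKM in fl/fl and 3.33 FPKM in AD1KO (log2 ratio -1.07, interval -1.27 to -0.87), lower in the library labelled AD1KO. Adipocyte genes were abundant in both libraries, as the tissue label requires, with *Adipoq* at 1911 and 3318 FPKM. Of 7 adipocyte markers, 6 were higher in AD1KO and 1 lay between, with a median log2 ratio of 0.54, while 14.3% of all tested genes were higher. The oviduct gene *Ovgp1* was at 3.51 FPKM in fl/fl and 0.17 FPKM in AD1KO, and *Ltf* at 5.09 and 0.20 FPKM, while the epithelial keratins *Krt8*, at 5.32 and 6.42 FPKM, and *Krt18*, at 5.72 and 5.91 FPKM, were short of the cutoff. Of that list of 8 reproductive tract epithelium genes, 5 were lower and 3 lay between, and its summed level was 24.5 FPKM in fl/fl and 13.8 FPKM in AD1KO, and its part in the values below was not tested.

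Promoter sequence was set beside the expression values because GATA3, itself 1 of the 10 genes, binds GATA motifs and is required for *Il5* and *Il13* expression. The RefSeq promoter table held 6 of the 10 genes, and *Ikzf2*, *Klrg1*, *Il10* and *Arg1* were not matched. It uses GRCm38.p6, a later build than the mm9 that the study's methods name for the expression data. In the 250 bases before each start, the motif AGATAA and its variants AGATAG (last base), TGATAA (first base) and TGATAG (both) were sought on both strands. *Il13* and *Il5* had 1 match each, and *Foxp3* had 2 and 1 at its 2 listed starts. *Gata3*, *Areg* and both starts of *Il33* had 0. Of all 32851 promoter windows of that length, 26.5% held a match. A match describes the letters and not a bound site. The windows of the 3 genes with a match follow, in lower case with the motif in capitals.
Il13 (chr11:53634703-53634952, minus strand): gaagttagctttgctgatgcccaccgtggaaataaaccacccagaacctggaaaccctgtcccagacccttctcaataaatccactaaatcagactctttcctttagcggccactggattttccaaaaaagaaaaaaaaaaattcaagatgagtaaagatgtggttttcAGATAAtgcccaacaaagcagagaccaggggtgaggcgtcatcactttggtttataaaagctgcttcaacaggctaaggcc
Il5 (chr11:53720544-53720793, plus strand): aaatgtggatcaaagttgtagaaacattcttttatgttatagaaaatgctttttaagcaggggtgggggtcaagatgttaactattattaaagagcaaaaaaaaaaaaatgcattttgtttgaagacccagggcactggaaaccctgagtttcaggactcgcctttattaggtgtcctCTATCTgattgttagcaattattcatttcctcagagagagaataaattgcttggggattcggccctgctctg
Foxp3, first listed start (chrX:7579426-7579675, plus strand): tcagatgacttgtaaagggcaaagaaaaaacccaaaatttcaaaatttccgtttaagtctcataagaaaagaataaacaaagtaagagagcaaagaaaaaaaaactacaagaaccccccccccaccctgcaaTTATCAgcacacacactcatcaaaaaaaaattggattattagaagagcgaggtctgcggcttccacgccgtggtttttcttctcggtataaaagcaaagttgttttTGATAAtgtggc
Foxp3, second listed start (chrX:7580233-7580482, plus strand): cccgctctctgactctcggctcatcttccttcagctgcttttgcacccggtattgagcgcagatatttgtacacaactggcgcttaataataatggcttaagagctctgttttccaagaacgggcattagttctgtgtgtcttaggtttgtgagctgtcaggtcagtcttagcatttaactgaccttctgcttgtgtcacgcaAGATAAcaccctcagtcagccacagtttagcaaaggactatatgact

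The same windows differed in CpG sites, the substrate of DNMT1. *Gata3* held 19 CpGs and *Areg* 15, more than 80.3% and 72.7% of all windows. *Foxp3* held 6 and 7 at its 2 starts, beside a median of 6 over all windows. *Il33* held 4 at each start, *Il13* 3 and *Il5* 2. No methylation value of these promoters was analysed here.

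*Foxp3* encodes the factor that defines Treg cells. It lies at chrX:7156802-7172369 of mm9 (plus strand). *Foxp3* was at 1.25 FPKM in fl/fl (interval 0.999 to 1.56) and 0.30 FPKM in AD1KO (interval 0.179 to 0.465), from 81 and 19 reads. That is 4.17-fold lower in AD1KO (log2 ratio -2.02, interval -2.88 to -1.34), and the intervals of the levels do not overlap. The gene was listed above 31.2% of all genes in fl/fl and above 19.0% in AD1KO, so it was a low-abundance transcript in both libraries. *Ccdc22* and *Ppp1r3f*, annotated on the opposite strand within the same span, were at 12.98 and 11.84 FPKM and at 0.59 and 0.76 FPKM. A noncoding transcript annotated on the same strand as *Foxp3* also overlaps it, and strand cannot separate their shared reads. As the counting is not stated to use strand, reads where *Ccdc22* and *Ppp1r3f* overlap *Foxp3* cannot be told apart either.

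*Ikzf2* encodes Helios, an Ikaros family factor that marks most thymus-derived Treg cells and is also made by some other T and NK cells. At chr1:69577788-69732534 (minus strand), it was at 0.77 FPKM in fl/fl and 0.34 FPKM in AD1KO, from about 128 and 56 reads. The log2 ratio was -1.16 (interval -1.66 to -0.72), and the intervals of the levels, 0.644 to 0.919 FPKM and 0.258 to 0.443 FPKM, do not overlap. With 1 FPKM added in place of 0.01, the *Ikzf2* ratio was -0.40, short of the cutoff. Of its 4 relatives, *Ikzf1*, which is made across lymphocytes, was lower with a log2 ratio of -0.94 and *Ikzf3*, a lymphocyte factor, with -1.10. *Ikzf4*, also linked to Treg cells, was lower with -1.05 from 25 and 11 reads. *Ikzf5*, which is widely expressed, was at 2.30 and 2.61 FPKM with a ratio of 0.18. The counting intervals of *Ikzf2* and of *Ikzf1*, -1.14 to -0.76, overlap.

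*Il10* encodes the cytokine IL-10, which Treg cells, other T cells and macrophages secrete and which restrains inflammatory gene expression in macrophages. At chr1:132916422-132921551 (plus strand), it was at 2.14 FPKM in fl/fl (interval 1.56 to 2.86) and 0.62 FPKM in AD1KO (interval 0.332 to 1.07), from 45 and 13 reads. This was 3.45-fold lower in AD1KO, with a log2 ratio of -1.77 (interval -2.79 to -0.86).

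*Klrg1* encodes a lectin-like inhibitory receptor found on terminally differentiated T and NK cells, on activated ILC2s and on a subset of tissue Treg cells. At chr6:122220614-122232900 (minus strand), it was at 1.26 and 0.59 FPKM from 28 and 13 reads. The log2 ratio was -1.08 (interval -2.17 to -0.10), and the intervals of the levels overlap. Of the cadherins that KLRG1 binds, *Cdh1* (E-cadherin) had 18 and 6 reads with a ratio of -1.42 (interval -3.19 to -0.18), and *Cdh2* (N-cadherin) had 48 and 39 reads with -0.27 (interval -0.93 to 0.35). *Cdh1* is also among the reproductive tract epithelium genes counted above, and the part of that epithelium in its value was not tested.

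*Gata3* encodes the transcription factor shared by Th2 cells, ILC2s and many tissue Treg cells. At chr2:9778705-9811661 (minus strand), it was at 0.82 FPKM in fl/fl and 0.49 FPKM in AD1KO, from 45 and 27 reads. The log2 ratio was -0.73, and its interval ran from -1.47 to just below 0 (upper end -0.0041), so the ratio passed the cutoff while the interval did not. With 1 FPKM added it was -0.29. In the annotation 3 other genes overlap *Gata3*, 1 protein-coding gene on the same strand among them, and reads where they overlap cannot be told apart. *Areg* encodes amphiregulin, an EGF family growth factor that Treg cells and ILC2s secrete in tissue repair. At chr5:91568641-91577458 (plus strand), it had 3 reads in fl/fl, 0.15 FPKM, and was listed at 0 in AD1KO. A listing of 0 allows up to 3 reads, so no fold is given and *Areg* cannot be called different from these reads.

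Set against each other, the 10 genes kept *Il33*, *Arg1*, *Il10* and *Klrg1* as the 4 highest in both libraries, in that order, although the intervals of *Il10* and *Klrg1* overlap in each library, as do those of *Klrg1* and the gene after it, *Foxp3* in fl/fl and *Gata3* in AD1KO. *Foxp3* stood at rank 5 in fl/fl and rank 8 in AD1KO, where *Gata3* (0.49 FPKM), *Il13* (0.36 FPKM), *Ikzf2* (0.34 FPKM) and *Foxp3* (0.30 FPKM) followed each other with overlapping intervals. *Il33* and *Arg1* did not overlap with each other or with the genes below them in either library.

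*Il33* encodes the alarmin IL-33, held in the nuclei of stromal, mesothelial and endothelial cells and released on damage. At chr19:29999604-30035194 (plus strand), it was at 5.74 FPKM in fl/fl (interval 5.05 to 6.51) and 5.80 FPKM in AD1KO (interval 5.09 to 6.57), from 246 reads in each library. The log2 ratio was 0.01 (interval -0.25 to 0.27), and the counting interval lay wholly inside the cutoff in both directions. Genes of cells that make IL-33 were not all at such equal levels. All 7 mesothelial genes were higher, with a median log2 ratio of 0.82 and a range from 0.75 to 1.07. *Upk3b*, a mesothelial membrane protein, was at 30.6 and 64.3 FPKM, and *Msln* (mesothelin) at 15.2 and 27.0 FPKM. Of 7 stromal progenitor genes, 2 were lower and 1 was higher, with a median of 0.04. All 6 endothelial genes lay between -0.5 and 0.5, with ratios from 0.10 to 0.49. Per 1000 reads of the mesothelial genes there were 84.4 *Il33* reads in fl/fl and 45.6 in AD1KO (log2 ratio -0.89, interval -1.16 to -0.62). Per 1000 reads of the endothelial genes there were 54.7 and 47.1 (-0.22, interval -0.48 to 0.05), so the relative level depended on the reference.

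The receptor genes for IL-33 were read beside it. *Il1rl1* (ST2), the IL-33 receptor of Treg cells, ILC2s and mast cells, was at 2.15 and 1.39 FPKM from 186 and 119 reads (log2 ratio -0.63, interval -0.98 to -0.29). *Il1rap*, the shared signalling chain, was at 1.68 and 1.51 FPKM, a ratio of -0.15 (interval -0.55 to 0.24). Mast cells also carry ST2, and all 6 mast cell markers were lower, with ratios from -1.62 to -0.62 and a summed level of 377 FPKM in fl/fl and 138 FPKM in AD1KO. The part of mast cells in the *Il1rl1* value was not tested.

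*Il5* and *Il13* encode the cytokines that sustain eosinophils and act on macrophages and stromal cells. They are neighbours on chromosome 11 of mm9, with *Il13* at 53444826 to 53448204 (minus strand) and *Il5* at 53534296 to 53538608 (plus strand), and 86091 bases with the DNA repair gene *Rad50* as the 1 protein-coding gene between them. *Il13* was listed at 0 in fl/fl and was at 0.36 FPKM in AD1KO, 7 reads. Against a fixed floor of 3 reads for the listing of 0, *Il13* was at least 2.35-fold higher in AD1KO, a figure that leaves out the counting error of its 7 reads. With that error the interval of the log2 ratio began at 0.54, a smaller difference, and the Poisson intervals of the levels, up to 0.189 FPKM in fl/fl and from 0.146 FPKM in AD1KO, overlap. *Il5* was listed at 0 in fl/fl and was at 0.12 FPKM in AD1KO, 3 reads, too few to call a difference. A noncoding transcript annotated on the opposite strand overlaps *Il5*. *Il4*, another type 2 cytokine of the locus, had 2 and 1 reads.

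The receptor genes of these cytokines differed in level and in direction. *Il4ra*, the chain that IL-4 and IL-13 share, was at 19.2 and 11.0 FPKM with a log2 ratio of -0.81 (interval -0.92 to -0.69). *Il13ra1*, its partner, was at 4.66 and 3.03 FPKM with -0.62 (interval -0.89 to -0.35). *Il13ra2*, a decoy receptor for IL-13, was at 3.89 and 6.15 FPKM with 0.66 (interval 0.37 to 0.96), the opposite direction. *Il5ra*, the specific chain of the IL-5 receptor, had 3 reads in fl/fl and 9 in AD1KO, with an interval from -0.40 to 4.12, while *Csf2rb*, the signalling chain it shares with other receptors, was at 11.4 and 6.49 FPKM with -0.81.

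*Arg1* encodes arginase 1, which uses arginine and marks macrophages alternatively activated by IL-4 and IL-13. At chr10:24635014-24647276 (minus strand), it was at 4.11 FPKM in fl/fl (interval 3.35 to 5.01) and 3.70 FPKM in AD1KO (interval 2.97 to 4.55), from 100 and 89 reads. The log2 ratio was -0.15 (interval -0.58 to 0.27), which leaves room for a decrease just past the cutoff. *Nos2*, the inducible nitric oxide synthase that uses the same arginine in inflammatory macrophages, was at 2.14 and 1.52 FPKM with -0.49 (interval -0.87 to -0.12). The intervals of *Arg1* and *Nos2* overlap. *Arg2*, the mitochondrial arginase, had 4 and 1 reads.

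IL-10 receptor genes were lower with the cytokine. *Il10ra*, the leukocyte-restricted chain, was at 16.9 and 6.17 FPKM with a log2 ratio of -1.45 (interval -1.63 to -1.28), and *Il10rb*, the widely expressed chain, at 61.9 and 40.2 FPKM with -0.62 (interval -0.73 to -0.52). Of 9 receptor and response genes of IL-10, 7 were lower and 0 were higher, with a median of -0.81 beside -0.04 over all tested genes. The 5 pan-leukocyte genes had a median of -1.27 and the 10 T cell markers -1.61, both farther below 0. Relative to T cell marker reads, *Il10ra* had a log2 ratio of 0.12 (interval -0.09 to 0.32). Relative to pan-leukocyte reads it had -0.18 (interval -0.36 to -0.005). *Socs3*, a feedback inhibitor that STAT3 induces, was at 11.0 and 5.06 FPKM with -1.12. The kinase *Jak1* was at 35.7 and 32.7 FPKM with -0.13, and *Stat3* at 27.0 and 19.6 FPKM with -0.46, both short of the cutoff.

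The IL-2 pathway, on which Treg survival depends, was divided. *Il2ra* (CD25), the high-affinity receptor chain that Treg cells and activated ILC2s carry, was at 1.28 FPKM in fl/fl and 1.30 FPKM in AD1KO, 98 reads in each, with an interval from -0.41 to 0.43. *Il2rb*, the chain shared with NK and CD8+ T cells, was at 6.15 and 1.71 FPKM with a log2 ratio of -1.84 (interval -2.23 to -1.48). *Il2* itself had 3 reads in fl/fl and was listed at 0 in AD1KO. The interval of *Il2ra* does not overlap that of *Foxp3*. Over the 18 receptor, ligand and competitor genes of the 10, 11 were lower and 5 lay between, with a median of -0.62. The 2 higher genes were *Il13ra2* and *Il5ra*. Over all tested genes, 19.1% were lower and 14.3% were higher. Of the 18, whole counting intervals lay past the cutoff for 5 lower and 0 higher genes. *Il5ra* passed the 0.1 FPKM minimum only through AD1KO, and *Il2*, *Arg2* and *Cdh1* only through fl/fl, so that minimum favoured their calls.

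**Figure D2:**
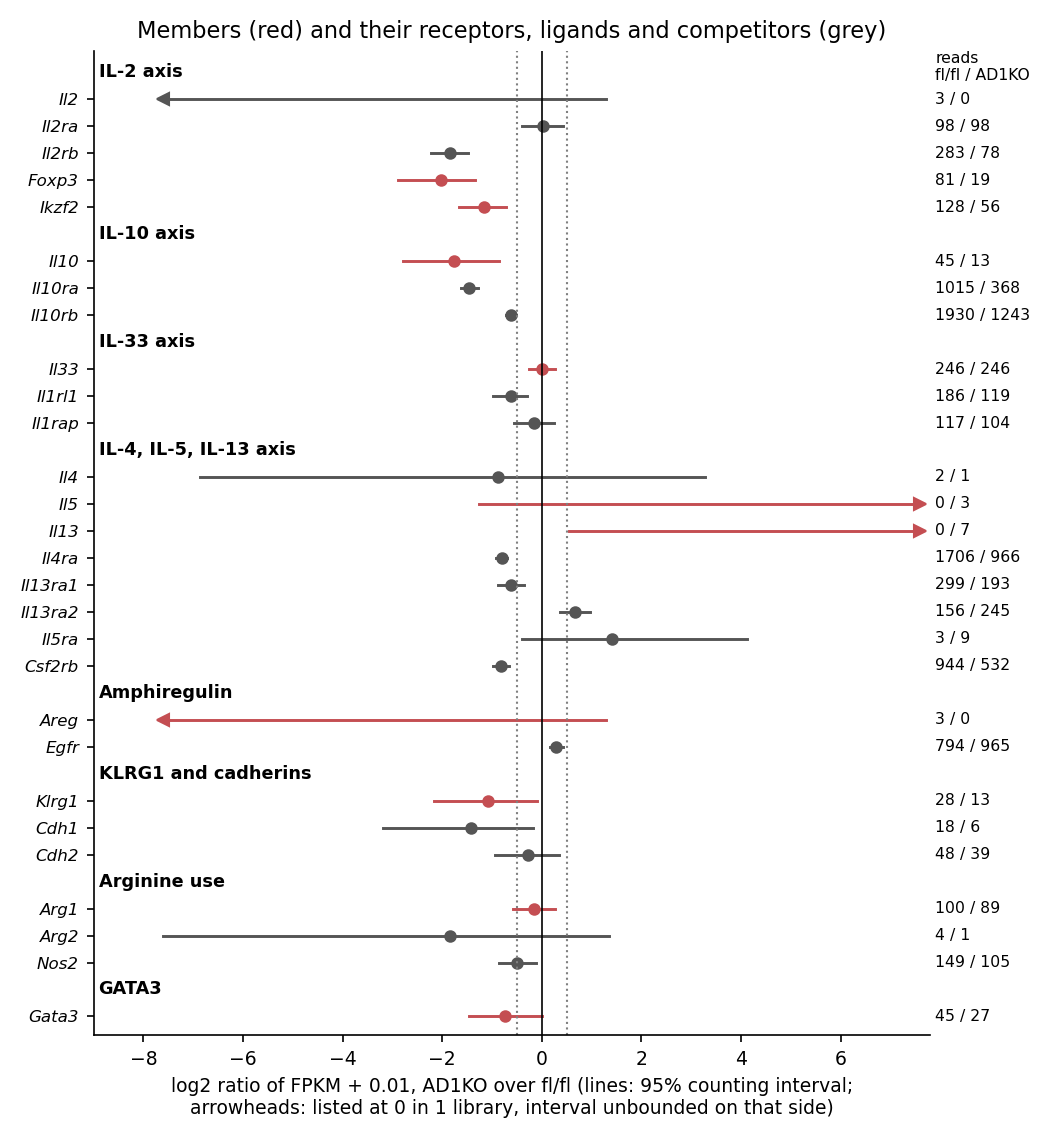
Log2 ratio of AD1KO to fl/fl FPKM, 0.01 added to both, for the 10 genes (red) and their receptors, ligands and competitors (grey), by pathway, with lines for 95% counting intervals, arrowheads where a gene is listed at 0 in 1 library, dotted lines at -0.5 and 0.5, and reads of fl/fl and AD1KO at the right. *Foxp3*, *Ikzf2*, *Il10*, *Il10ra*, *Il10rb*, *Il2rb*, *Il4ra* and *Csf2rb* lie wholly left of -0.5, while the intervals of *Il33*, *Arg1* and *Il2ra* span 0.

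Wider lists of the same cells were counted for context. Of 21 tested Treg signature genes, 16 were lower and 1 was higher, with a median log2 ratio of -1.05, and without *Foxp3* and *Ikzf2* 14 of 19 were lower. *Tigit* and *Ctla4*, inhibitory receptors of Treg and activated T cells, had the ratios farthest from 0 in that list among genes at 1 FPKM or more. *Tigit* was at 4.05 FPKM in fl/fl and 0.36 FPKM in AD1KO (log2 ratio -3.46, interval -4.65 to -2.49), and *Ctla4* at 1.96 and 0.22 FPKM (-3.10, interval -4.53 to -2.03). *Tgfb1*, a cytokine gene that many cells express, was at 101 and 56.4 FPKM with -0.84, and the ectonucleotidase *Entpd1* (CD39) at 11.9 and 6.62 FPKM with -0.85. *Nrp1*, which endothelial cells express as well, was at 38.9 and 32.1 FPKM with -0.28.

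Of 17 tested ILC2 and Th2 genes, 11 were lower and 2 were higher, and the 2 higher were *Il5* and *Il13*. Over all tested genes, 19.1% were lower and 14.3% were higher. Whole counting intervals lay past the cutoff for 4 lower and 1 higher of the 17, against 8.35% and 4.18% of all tested genes. Without the 5 of the 10 genes that the list holds, 8 of 12 were lower and 0 were higher. The 8 include *Il1rl1*, *Il4* and *Csf2*. *Il4* and *Csf2* had 2 and 1 reads each, too few to call a difference, and *Csf2* passed the 0.1 FPKM minimum only through fl/fl. *Icos*, a costimulatory receptor shared by Treg cells and ILC2s, was at 2.00 and 0.33 FPKM with -2.56 (interval -3.43 to -1.90), and *Id2*, a regulator of innate lymphoid development that other cells also express, at 42.6 and 20.3 FPKM with -1.07. *Crlf2*, the TSLP receptor chain, was at 55.7 and 37.1 FPKM with -0.59. The 4 that lay between were *Maf*, a factor of Th2 and other cells, at 47.1 and 41.2 FPKM with -0.19, *Rora*, a factor required for ILC2 development, with 0.18, the IL-25 receptor chain *Il17rb* with 0.18 and *Tslp*, an epithelial and stromal cytokine, with 0.50, just short of the cutoff.

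Downstream of type 2 cytokines, 16 alternatively activated macrophage genes gave 7 lower and 2 higher, with a median of -0.27. *Retnla* (RELMα) was at 549 and 445 FPKM with -0.31, *Clec10a* (CD301a) at 109 and 71.4 FPKM with -0.61 and *Ccl22*, a chemokine that attracts CCR4+ T cells, at 5.28 and 2.01 FPKM with -1.39. *Cd209d*, a lectin of resident macrophages, was at 6.52 and 16.9 FPKM with 1.37 (interval 1.01 to 1.75). Macrophage markers, by comparison, gave 7 of 8 lower with a median of -1.04, and their summed level was 3422 FPKM in fl/fl and 1689 FPKM in AD1KO.

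Eosinophils are the main target of IL-5. Of 7 matched markers 2 were lower, 1 was higher and 4 lay between, with a median of -0.11. The 1 higher was *Il5ra*, with 3 and 9 reads and an interval that spans 0. It passed the 0.1 FPKM minimum only through AD1KO. *Prg2*, the granule major basic protein, was at 2.27 and 1.03 FPKM (interval -2.21 to -0.16), *Ear1*, an eosinophil ribonuclease, at 2.82 and 2.84 FPKM, *Alox15*, a lipoxygenase that eosinophils and some macrophages make, at 9.58 FPKM in both libraries, and *Ccl11* (eotaxin), made by stromal cells, at 143 and 113 FPKM with -0.34. *Ccr3*, the eotaxin receptor, was at 0.80 and 0.31 FPKM with -1.34 (interval -2.29 to -0.56), the 1 marker whose whole interval was past the cutoff.

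Among the EGF family ligands to which amphiregulin belongs, *Hbegf* was at 1.49 and 2.93 FPKM with a log2 ratio of 0.97 (interval 0.52 to 1.45), *Btc* (betacellulin) at 1.94 and 2.62 FPKM with 0.43, and *Egf* at 0.42 and 0.35 FPKM. Their receptor *Egfr* was at 8.86 and 10.9 FPKM with 0.29. Of the 6 tested ligands, 3 were higher (*Hbegf*, *Tgfa* with 17 and 36 reads, and *Epgn* with 0 and 6) and 1, *Areg* with 3 and 0, was lower. *Epgn* and *Areg* passed the 0.1 FPKM minimum only through the library where they were seen, so their calls were set by that minimum.

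Markers of other leukocytes moved with the Treg genes. All 10 T cell markers were lower, with log2 ratios from -2.22 to -1.0, a median of -1.61 and a summed level of 109 FPKM in fl/fl and 37.4 FPKM in AD1KO. None of the 10 was at 0. *Cd3g*, a chain of the T cell receptor complex, was at 25.8 and 7.12 FPKM, and *Cd5* at 5.06 and 1.08 FPKM. All 8 tested Th1 and Th17 genes were lower, with *Ifng* at 2.12 and 0.21 FPKM. All 6 NK cell markers (median -2.31) and all 5 pan-leukocyte genes (median -1.27) were lower too, and 3 of 5 B cell markers were. In bulk tissue, fewer cells of a type and less RNA per cell cannot be told apart.

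Reads of each gene were set against the summed reads of the 10 T cell markers of the same library, 2754 in fl/fl and 921 in AD1KO. *Foxp3* gave 29.4 reads per 1000 T cell marker reads in fl/fl and 20.6 in AD1KO (log2 ratio -0.51, interval -1.32 to 0.23), and the interval spans 0. Relative to *Cd4* alone its ratio was -0.57 (interval -1.45 to 0.26). *Ikzf2* gave 46.5 and 60.8 reads per 1000 (log2 ratio 0.39, interval -0.11 to 0.87) and *Il10* gave 16.3 and 14.1 (-0.21, interval -1.23 to 0.71). *Klrg1* gave 10.2 and 14.1 (0.47, interval -0.61 to 1.48). For these 4 genes a change beyond that of T cell markers was not detectable at this depth, and the intervals are wide enough to hold one past the cutoff in at least 1 direction. *Gata3* gave 16.3 and 29.3 reads per 1000 (0.84, interval 0.09 to 1.57), so it was lower in the tissue and higher per T cell marker read, while relative to *Cd4* alone its ratio was 0.78 with an interval that spans 0 (-0.05 to 1.59). ILC2s also express *Gata3*, so its reads cannot be assigned to T cells alone.

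Other transcripts stood clear of the T cell markers. *Il33* gave 89.3 and 267 reads per 1000 T cell marker reads (log2 ratio 1.58, interval 1.30 to 1.86), *Arg1* gave 36.3 and 96.6 (1.41, interval 0.97 to 1.85) and *Il2ra* gave 35.6 and 106 (1.58, interval 1.15 to 2.01). *Il1rl1*, lower in the tissue, gave 67.5 and 129 (0.94, interval 0.57 to 1.29). In the other direction lay *Ctla4*, with 22.9 and 7.6 reads per 1000 (-1.59, interval -2.97 to -0.46), and *Tigit*, with 36.7 and 9.77 (-1.91, interval -3.08 to -0.92). *Ctla4* had 7 reads in AD1KO and *Tigit* 9. Both were named because their ratios lay farthest from 0 in the Treg signature list. Their distance from the T cell markers is therefore not a separate result. *Il33* and *Arg1* are made mainly by cells other than T cells. ILC2s also carry *Il2ra* and *Il1rl1*, and mast cells carry *Il1rl1*, so these ratios are not levels per T cell.

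With the 5 pan-leukocyte genes as the reference, *Foxp3* had a relative log2 ratio of -0.81 (interval -1.61 to -0.07), wholly below 0. *Ikzf2* (0.09), *Klrg1* (0.18), *Il10* (-0.51) and *Gata3* (0.55) had intervals that span 0, so *Foxp3* stayed below 0 and *Gata3* above 0 with both references, and which of their intervals left out 0 depended on the reference. *Arg1* (1.11, interval 0.68 to 1.54) and *Il33* (1.28, interval 1.02 to 1.55) were above 0 with both. Against the summed reads of macrophage markers, *Arg1* reads were also relatively higher in AD1KO, with a log2 ratio of 0.87 (interval 0.44 to 1.30). Against the summed reads of adipocyte markers, both were relatively lower in AD1KO. *Il33* had -0.63 (interval -0.90 to -0.37) and *Arg1* -0.80 (interval -1.23 to -0.38), so the direction depended on the reference.

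**Figure D3:**
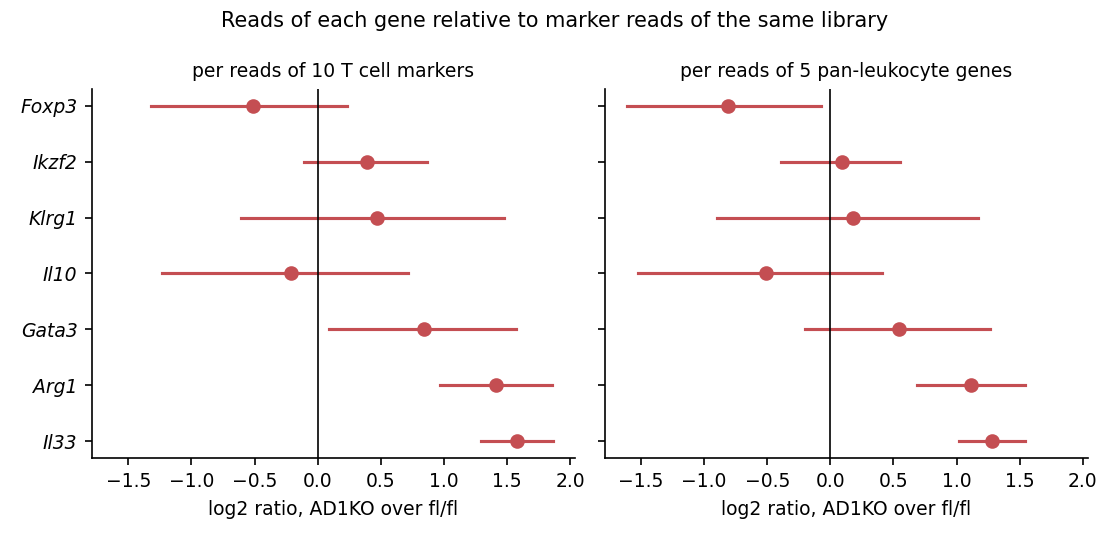
Log2 ratio in AD1KO over fl/fl of the reads of 7 of the genes relative to the summed reads of 10 T cell markers (left) and of 5 pan-leukocyte genes (right) in the same library, with lines for 95% counting intervals. *Il33* and *Arg1* lie right of 0 in both panels, *Foxp3* lies left of 0 with an interval that spans it on the left panel and ends at -0.07 on the right, and *Ikzf2*, *Klrg1* and *Il10* span 0 in both.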

How the data were processed

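RNA-seq of gWAT was analysed for 2 pooled libraries, fl/fl and AD1KO. Per the study's methods the reads were mapped to mm9 by a sequencing company, and the aligner and quantifier are not given in the sources used here. The sample records of the series name both mm9 and mm10. The authors deposited 1 table whose expression columns hold FPKM, with 0 written as 0.01, recognised from the values since the header does not name the unit. Its columns of fold change, FDR and P-value hold the authors' own comparison and were not used. The bisulfite samples were not analysed here. With no replicates, no p-value was computed.

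Values of 0.01 were set to 0. Genes with 0.1 FPKM or more in 1 library (15839) were tested, meaning compared with a log2 cutoff of 0.5 after adding 0.01 FPKM. Reads were recovered from the FPKM values alone: FPKM times transcript length less a correction, times library total, is a whole number at the right settings. The best settings were a correction of 120 bases and totals of 17746000 (fl/fl) and 17585000 (AD1KO), near the sums of recovered reads, 17849448 and 17658652. Of low genes whose rounding leaves under 0.1 read of doubt, 72.4% and 73.9% lay within 0.15 of a whole number, where arbitrary values would give 30%. Intervals are exact Clopper-Pearson (ratios), exact Poisson (levels) or exact conditional odds ratio intervals (reads relative to markers, a step added after the data were seen), all at 95%. A listing of 0 allows 3 reads. On simulated tables the recovery of reads, ratios and calls was tested first.

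The genes and all lists were chosen with earlier results of these data known. Named genes were the 10 genes, their partners, and from each other list up to 3 of highest mean FPKM and up to 2 of largest ratio at 1 FPKM or more. *Ikzf4*, *Ccr3*, *Rora*, *Il17rb*, *Tslp*, *Tgfa*, *Epgn* and other genes beyond that rule were named for their family or role, after their values were seen. Positions are from GENCODE vM1 (mm9), promoters from RefSeq (GRCm38.p6). The work ran in Python 3.11.15 with pandas 2.3.3 and NumPy 2.4.6 for tables, SciPy 1.17.1 for intervals and Matplotlib 3.10.9 for plots.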

Additional observations from a re-analysis of the deposited data

How the results depend on the processing

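No paired analysis was possible because each group has 1 pooled library. None of the 10 genes changed the sign of its log2 ratio under the pseudocounts of 0.1 and 1 FPKM, the filters or the scalings by upper quartile, trimmed mean of M-values or median of ratios. *Foxp3* ranged from -2.02 to -0.79, *Il10* from -1.77 to -0.95, *Ikzf2* from -1.16 to -0.40, *Klrg1* from -1.08 to -0.51, *Gata3* from -0.73 to -0.29, *Il33* from 0.01 to 0.10 and *Arg1* from -0.15 to -0.06.

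A pseudocount of 1 FPKM, which shrinks low genes by construction, left 3 of the 10 genes lower and 0 higher, 1661 and 965 of all genes, and medians of -0.40 (Ikaros family), -0.62 (Treg signature), -1.05 (NK cells) and -0.25 (reproductive tract epithelium). A minimum of 1 FPKM left 3 genes lower and 0 higher, with 1281 of all genes higher, since fewer were tested. A threshold of 1 left 1417 and 910 of all genes lower and higher, and whole intervals past 0.5 left 3 and 1 of the 10 genes and 1322 and 662 of all genes. With at least 10 reads, a choice made after seeing the data, 0 of the genes were higher. Upper quartile, trimmed mean and median of ratios scaling gave macrophage medians of -0.95, -0.997 and -0.9999 and adipocyte medians of 0.63, 0.59 and 0.59, and upper quartile scaling a stromal median of 0.13. It also gave 2609 lower and 2796 higher genes of all tested.

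Depth limits *Areg*, *Il5* and *Il13*, at 3 to 7 reads over both libraries, and likewise *Il2*, *Il4*, *Csf2* and *Arg2*, at 3 to 5. Intervals cover counting error only, and the spread between mice is unknown.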
